A study of Mus musculus with 10 samples.

Results

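Ribosomal protein genes encode the proteins of the cytosolic ribosome, and their transcripts were measured here in colon crypts, the epithelial glands of the mouse colon that hold its stem cells. A gene was taken as a member when it was protein-coding, its symbol began with Rpl or Rps followed by a digit or was Rpsa, and it was neither a kinase of the Rps6k family nor a copy whose symbol ends in -ps. Of the 33632 Ensembl gene IDs in the deposited table, 82 met this rule. Enough reads for the test fell on 80 of them, namely 43 proteins of the large subunit, 31 of the small subunit, 5 paralogues (Rps27l, Rps27rt, Rpl22l1, Rpl36al and Rpl7l1) and Rps19bp1, a binding protein of Rps19 that its symbol brought in. The remaining pair, Rpl39l and Rpl3l, was almost silent. The single count of Rpl39l fell in CKO 4, and Rpl3l had 1 count in flox 2, 7 in flox 5, 1 in CKO 2 and 1 in CKO 5.

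The study sequenced mRNA-enriched RNA from 10 crypt samples in 2 groups of 5. Samples labelled flox had the genotype Sox21fl/fl, with loxP sites around both alleles of the transcription factor gene Sox21 and no Cre. Samples labelled CKO had the genotype Lgr5-EGFP-IRES-CreERT2/+;Sox21fl/fl, so that 1 Lgr5 allele carried a green fluorescent protein and a Cre recombinase that tamoxifen switches on in Lgr5-positive stem cells. Both groups shared the floxed alleles, a normal diet and a normal liver. Only the CKO samples carried the Lgr5 knock-in, and the labels state neither age, nor tamoxifen given to flox, nor whether the 5 samples of a group came from 5 animals, and the p-values below therefore describe the variation among these samples only. The question put to the data is whether transcripts of the ribosome differ in crypts whose stem cells can lose Sox21.

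A ribosome is built from one copy of nearly every subunit protein, and the transcripts of these proteins are among the most abundant of dividing cells. Most of them start with a C followed by a run of pyrimidines, the terminal oligopyrimidine (TOP) tract, through which the mTOR kinase and the binding protein Larp1 control how much of each is translated. In the crypt, protein synthesis is high in the stem and transit-amplifying cells at the base. In bulk tissue, fewer cells of a type and less RNA per cell cannot be told apart, and a change in translation without a change in transcript leaves no mark in these data.

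The bases around the annotated transcription start are shown for 10 members on which the results turn, because the TOP tract is the sequence feature the family is known for. Sequences and positions are RefSeq's for assembly GRCm38.p6, which had an entry for 63 of the 82 members, and each runs from 20 bases before the start to 10 bases from it. Capitals mark a run of at least 5 pyrimidines whose opening C lies within 10 bases of the start. The run is counted from that C, so it can be the end of a longer one, as in Rpl7a.
Rps6 (chr4:86857358-86857387, reverse strand): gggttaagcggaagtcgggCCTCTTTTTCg
Rps18 (chr17:33955656-33955685, reverse strand): acttatacgtcacttccgCTCTCTCTTCCa
Rps24 (chr14:24490658-24490687, forward strand): acgcccccgcgctggggtCCTTCCTTgcgc
Rps15a (chr7:118116138-118116167, reverse strand): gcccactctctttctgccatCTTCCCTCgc
Rpl7a (chr2:26910787-26910816, forward strand): ccacaattccCTCTTCTTTCTTTCTCCagc
Rpl38 (chr11:114668560-114668589, forward strand): ccggaagcggaagcctcgttCTTTCCCCgt
Rps15 (chr10:80292411-80292440, forward strand): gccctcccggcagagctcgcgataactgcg
Rpl41 (chr10:128549159-128549188, reverse strand): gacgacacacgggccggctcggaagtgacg
Rpsa (chr9:120127746-120127775, forward strand): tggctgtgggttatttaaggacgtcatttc
Rps19 (chr7:24884572-24884601, forward strand): agcactccgaaatctcgcgagactcgacgc

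Such a run was present in 35 of the 63 members with an entry (55.6%), against 30.7% of all 32851 RefSeq start windows. In the last 4 windows shown no run met the rule, which says only that none opens with C within 10 bases of the start RefSeq gives. The Rps15 window does hold a run of pyrimidines, further before the start. CCGGAAG, a motif of Ets factors, was found on either strand of the 300 bases around the start in 38.1% of members and 8.86% of all windows. AAGATGGC, a motif of YY1, was found in the same way in 7.94% and 2.75%, and the TATA box letters TATAAA in 7.94% and 13.6%. The first of these motifs ends in the AAG with which the next one begins, so a match of each can overlap. The member shares use the first start listed for a gene, while the shares of all windows use every start. Over all 75 starts of members, the run was in 53.3%, CCGGAAG in 34.7%, AAGATGGC in 10.7% and TATAAA in 8%. These matches are descriptions of letters.

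A pair of flox libraries stood apart. The mitochondrial chromosome accounted for 26.5% (flox 1) and 29.3% (flox 4) of counts, and for 4.30% to 11.8% in the other 8 libraries. Total counts ran from 18926634 to 23642415. Levels below are CPM, counts scaled to a common library size after trimmed mean of M values (TMM) normalization, and the scaling factors of these 2 libraries were 0.585 and 0.605 against 0.965 to 1.28 elsewhere. Short transcripts were also relatively more abundant in them, with a slope of log2 CPM on log2 gene length of -0.25 and -0.14, while the other slopes ran from -0.07 to 0.11. Sox21 itself was no lower in CKO, at 5.34 ± 1.94 CPM against 4.04 ± 1.80 in flox (SD, n = 5 each), with an edgeR adjusted p of 0.577. A count per gene does not show whether the floxed part is present, so the group names stand for the labels. All 10 colon epithelium markers were detected in the samples, with summed levels of 23719 to 37096 CPM in flox and 15846 to 30509 CPM in CKO.

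Ribosomal protein genes took a few percent of every library, and the libraries of the groups overlapped. Their share of all counts was 4.94%, 3.64%, 4.03%, 3.42% and 2.74% in flox 1 to 5. In CKO 1 to 5 it was 3.67%, 3.41%, 5.24%, 4.76% and 5.89%. The lowest share was in flox 5 and the highest in CKO 5. The means were 3.76% ± 0.812 in flox and 4.59% ± 1.05 in CKO (SD, n = 5 each), a difference of 0.835 percentage points. Mitochondrial reads enter the denominator, and of the remaining counts the genes took 6.73%, 3.83%, 4.43%, 4.84% and 2.96% in flox 1 to 5. The values for CKO 1 to 5 were 3.91%, 3.56%, 5.55%, 5.40% and 6.16%. On this base flox 1 was the highest of all libraries. The group means then came to 4.56% ± 1.40 and 4.92% ± 1.12, and flox without libraries 1 and 4 to 3.74% ± 0.740 (n = 3). The difference between the means was smaller than the SD of CKO but not that of flox over all counts, and smaller than either SD over non-mitochondrial counts. Nuclear copies of mitochondrial sequence (the 4 genes Gm28437, Gm28661, Gm10925 and Gm29216, chosen after their values were seen) still took 11.3% of the total of flox 1 and 9.97% of that of flox 4. With these also left out of the base, the means were 5.04% ± 1.89 in flox and 5.08% ± 1.18 in CKO, a difference of 0.0413 percentage points. Without flox 1 and flox 4 it was 1.12 percentage points of all counts.

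**Figure D1:**
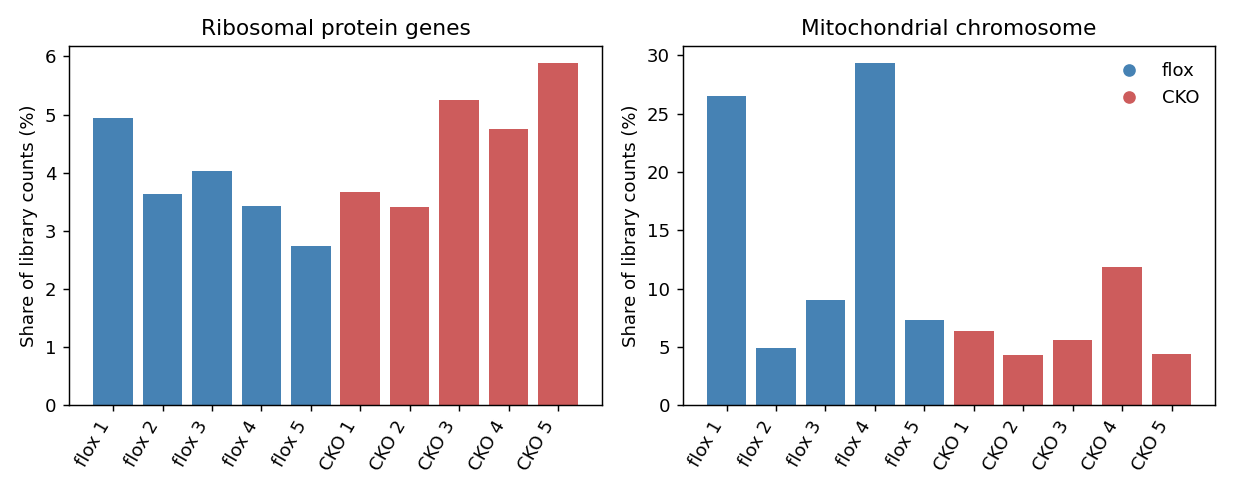
Share of each library's counts (bars, %) on the ribosomal protein genes (left) and on the mitochondrial chromosome (right), flox in blue and CKO in red. The ribosomal protein share runs from 2.74% in flox 5 to 5.89% in CKO 5 with overlapping groups, and the mitochondrial share stands above 25% only in flox 1 and flox 4.

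The genes moved together from library to library. On the log2 CPM scale, the mean over the 80 genes lay 0.96 above their 10-library average in flox 1 and 0.30 above it in flox 4. It was -0.39, -0.10 and -0.66 in flox 2, 3 and 5. In CKO 1 to 5 the mean deviation was -0.29, -0.45, 0.07, 0.28 and 0.27. Flox 1 was the highest library for 71 of the 80 genes and flox 5 the lowest for 63, while CKO 2 was the lowest for 13 and CKO 5 the highest for 8. On this TMM-scaled measure the extremes of both directions were thus mostly flox libraries. The order depended on the scaling. As a share of all counts, CKO 5 was highest at 5.89%, with flox 1 at 4.94% and flox 4 at 3.42%. Large and small subunit genes kept step, since their mean deviations differed by -0.09 to 0.08 in any library.

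**Figure D2:**
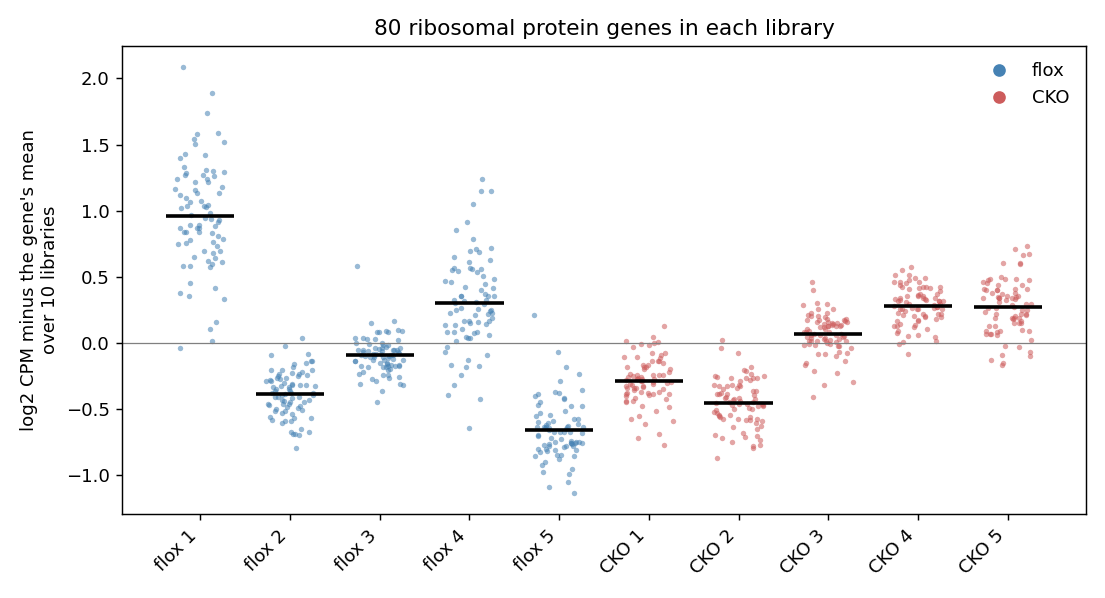
Deviation of each of 80 ribosomal protein genes (points) from its own mean over 10 libraries, in log2 CPM, with the mean over genes as a black line. Nearly all points lie above 0 in flox 1 and below 0 in flox 2, flox 5 and CKO 2.

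A single component held 90.4% of the variance of the 80 genes across the 10 libraries. The Pearson r of a gene with the mean of the other 79 had a median of 0.960 and was above 0.9 for 67 of the 80 genes (10 libraries, which all genes share). Rpl35, of the large subunit near the exit of the peptide tunnel, was highest at 0.998. Only 5 genes had an r under 0.6, namely Rpl4 (0.585), Rpl7l1 (0.509), Rpl7a (0.446), Rps18 (0.439) and Rpl10 (0.117). Within groups, the SD of log2 CPM had a median of 0.51 over these genes and 0.35 over all 14963 genes tested. Among genes at a mean log2 CPM of 8 or more, where counting noise is small, it was 0.51 for 53 of the ribosomal protein genes and 0.34 for all 525 such genes. It was widest for Rps15 (1.02), Rpl41 (0.90) and Rpl38 (0.82) and narrowest for Rpl7l1 (0.11), Rpl7a (0.17) and Rpl4 (0.17). Once the library mean of the family was removed, the median SD of a gene was 0.18.

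Over all 10 libraries, no ribosomal protein gene passed the test of a difference between the groups. By edgeR's quasi-likelihood test with Benjamini-Hochberg adjustment over all genes, 0 of the 80 passed 0.05, and so did 0 of the 14963 genes tested (0.00%). No ribosomal protein gene reached an unadjusted p of 0.05, which 13.0% of all genes did (1939 genes). DESeq2 called 0 of the 80 at an adjusted p of 0.05 and 1.14% of all genes (170), and limma voom with quality weights 0 of the 80 and 0.348% of all genes (52). The fitted log2 fold change of CKO over flox was above 0 for 26 of the 80 genes and below 0 for 54, against 50.1% above 0 among all genes. Its median was -0.13, with a range from -0.997 to 0.50, and the median over all genes was 0.00. In none of the 80 did all CKO libraries lie above all flox libraries (0.922% of all genes) or below them (1.26%). The CKO to flox ratio had a 95% interval that included 1 for all 80, and it lay within 1.5-fold of 1 on both sides for 11, so a difference of that size was within the interval for the other 69.

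The sign of the fitted differences depended on flox 1 and flox 4. Without them, the log2 fold change was above 0 for 79 of the 80 genes, against 53.3% of all genes, and Rpl10 was the exception at -0.29. The median was 0.40 for the ribosomal protein genes and 0.02 for all 15628 genes tested in these 8 libraries. Still none was called by edgeR, whose lowest adjusted p among them was 0.721 (0.00% of all genes called). An unadjusted p under 0.05 was reached by 20 of the 80, all higher in CKO, against 3.34% of all genes in that direction. The 80 genes moved together from library to library, so these 20 are not separate observations. DESeq2 without both libraries also called 0 of the 80, against 0.454% of all genes (71). With 3 flox libraries left, all 5 CKO libraries lay above all of flox 2, 3 and 5 for 2 members, Rpl7l1 and Rps27rt (2.09% of all genes), and below them for 0 (2.57%).

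The dependence was similar when all 10 libraries were kept and the mitochondrial share entered the fit as a covariate. The log2 fold change was then above 0 for 79 of 80 genes (51.3% of all genes) with a median of 0.41, and 0 genes of the 80 were called (0.00668% of all genes). Leaving out flox 1 alone gave a median of 0.19 with 61 above 0 (50.5% of all genes), and leaving out any other single library gave medians between -0.29 and -0.04. The sign of the median also turned when the trend on gene length was removed from the log2 CPM of each library, with 51 of 80 above 0 (50.4% of all genes) and a median of 0.05. It turned under limma voom with quality weights as well, with 46 of 80 above 0 (50.9% of all genes) and a median of 0.06. None of the 80 was called with the length correction (0.00% of all genes). The cause was not tested.

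**Figure D3:**
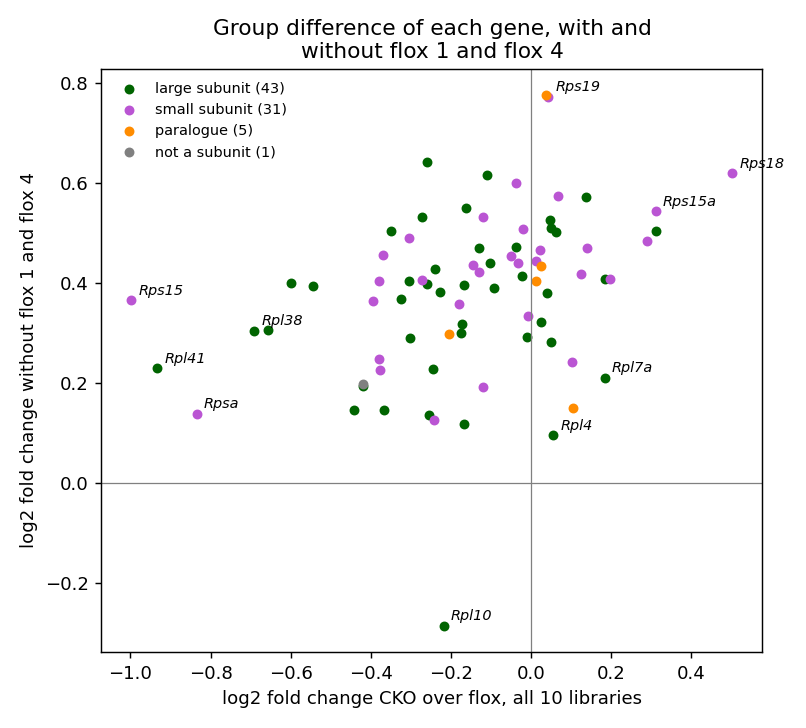
Fitted log2 fold change of CKO over flox for each of 80 genes in all 10 libraries (horizontal axis) and without flox 1 and flox 4 (vertical axis), coloured by class. The points lie on both sides of 0 from -0.997 to 0.50 along the horizontal axis, and all except Rpl10 lie above 0 along the vertical axis.

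The small subunit reads the mRNA. Of its 31 genes, 11 had a log2 fold change above 0 and 20 below in all libraries, with a median of -0.05. Without flox 1 and flox 4 all 31 were above 0, with a median of 0.43. An unadjusted p under 0.05 was reached by 10, all higher in CKO (3.34% of all genes in that direction).

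Rps15, a protein of the subunit head near the decoding site whose start window above holds no run that met the rule, had the lowest fold change of the family. It stood at 4098, 555, 918, 2280 and 491 CPM in flox 1 to 5, then at 563, 527, 860, 1358 and 870 CPM in CKO 1 to 5. Flox 1 and flox 4 were above every CKO library, and flox 2 and flox 5 were within or below their range. The log2 fold change was -0.997 ± 0.56 (SE, edgeR adjusted p = 0.428), and 0.36 without flox 1 and flox 4 (adjusted p = 0.884).

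Rpsa, the laminin receptor precursor that also sits in the small subunit and is another of the members shown without the run, was the most abundant by CPM. Its levels were 5906, 1230, 2095, 4359 and 1248 CPM in flox 1 to 5, against 1197, 1225, 1680, 2464 and 1753 CPM in CKO 1 to 5. The same 2 flox libraries were high, and the other 3 overlapped with CKO. Its log2 fold change was -0.83 ± 0.44 (SE, edgeR adjusted p = 0.412), and 0.14 without those libraries.

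Rps18, a head protein that contacts the large subunit and has a pyrimidine run in its start window, lay at the other end. It measured 480, 368, 302, 239 and 234 CPM in flox 1 to 5, then 410, 355, 517, 394 and 624 CPM in CKO 1 to 5. In flox 4 it was among the lowest, where most of the family was high, and the groups overlapped through flox 1 and flox 2. The means were 325 ± 102 CPM in flox and 460 ± 110 CPM in CKO (SD, n = 5 each). Its log2 fold change of 0.50 ± 0.23 (SE) had the smallest unadjusted p of the family at 0.0513, which became 0.386 after edgeR's adjustment, and the 95% interval of the ratio ran from 0.998 to 2.01. It was 0.62 without flox 1 and flox 4, and between 0.37 and 0.69 when any 1 library was left out.

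Rps3, which lines the channel through which mRNA enters, was at 1045, 754, 734, 759 and 534 CPM in flox, against 815, 732, 1025, 949 and 1159 CPM in CKO. Only flox 1 reached the range of the 3 highest CKO libraries. Its log2 fold change was 0.29 ± 0.20 (SE, edgeR adjusted p = 0.492), and 0.48 without flox 1 and flox 4. Rps15a, shown with the run, and Rps7, small subunit proteins with fold changes of 0.31 and 0.20 (log2), were likewise above 0 with every single library left out, from 0.20 to 0.55 and from 0.11 to 0.33.

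Rps6, the subunit protein that kinases downstream of mTOR phosphorylate and a member shown with the run, had nearly equal means in both groups. It was at 1058, 500, 660, 767 and 504 CPM in flox 1 to 5, then at 553, 489, 759, 783 and 886 CPM in CKO 1 to 5. Flox 1 was highest and CKO 2 lowest, and the groups overlapped, with means of 698 ± 231 and 694 ± 167 CPM (SD, n = 5 each). The CKO to flox ratio had a 95% interval of 0.685 to 1.45, and the log2 fold change was -0.01, or 0.33 without flox 1 and flox 4. Rps4x, an X-linked protein of the small subunit, had a log2 fold change of -0.12 ± 0.22 (SE), and Rps27a, which is made as a fusion with ubiquitin, of -0.03 ± 0.29.

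Rps19, Rps24 and Rps26 are small subunit genes whose loss of 1 allele causes Diamond-Blackfan anaemia in people. The windows above show a pyrimidine run for Rps24 and none for Rps19. Rps19 was at 976, 291, 326, 430 and 190 CPM in flox 1 to 5, then at 336, 282, 494, 602 and 565 CPM in CKO 1 to 5. Flox 1 was above every CKO library and flox 5 below. Its log2 fold change moved from 0.04 ± 0.40 (SE, edgeR adjusted p = 0.963) to 0.77 without flox 1 and flox 4 (unadjusted p = 0.0197, adjusted p = 0.721), the largest value of any core subunit gene there. Rps24 was at 1594, 425, 625, 1014 and 402 CPM in flox, against 489, 388, 610, 864 and 735 CPM in CKO, with log2 fold changes of -0.40 and 0.36 with and without those libraries. For Rps26 the corresponding values were 0.13 and 0.42.

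**Figure D4:**
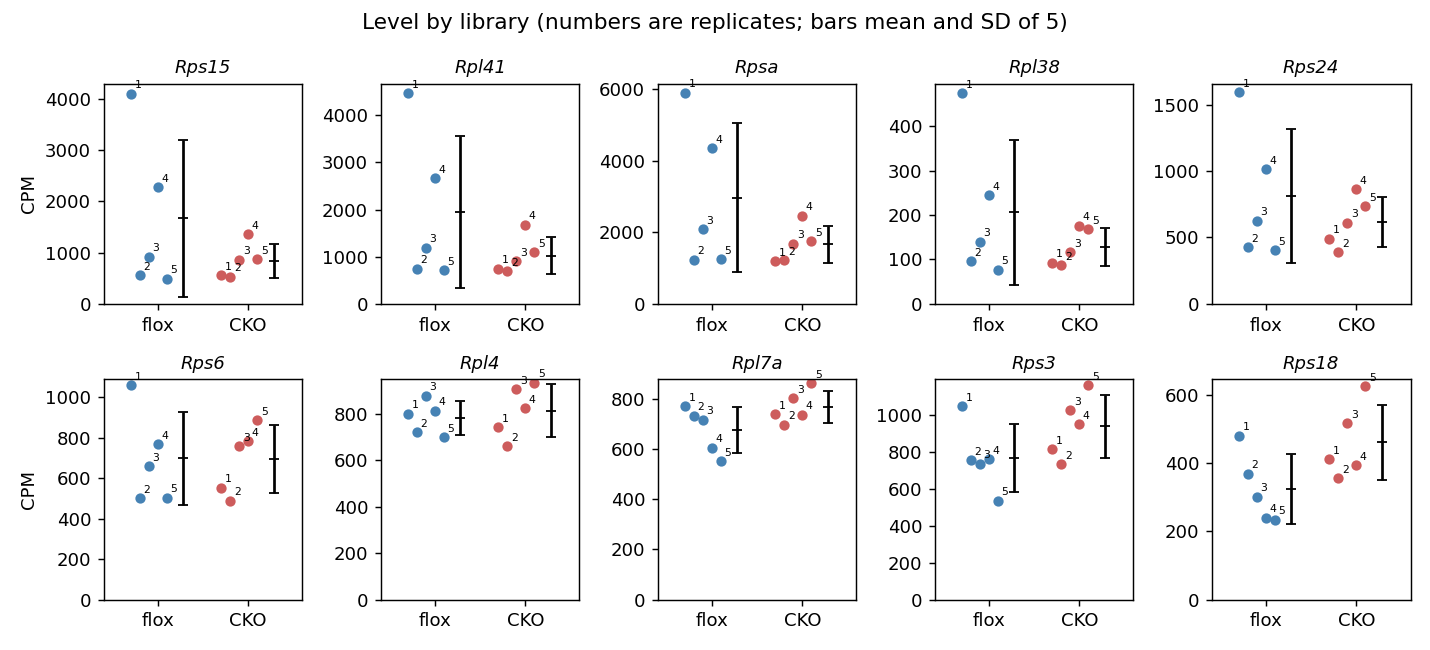
CPM of 10 members by library (points, numbered by replicate), with the mean and SD of 5 libraries beside them; each panel has its own axis from 0. Flox 1 and flox 4 stand high for Rps15, Rpl41, Rpsa, Rpl38 and Rps24, while flox 4 is among the lowest for Rpl7a and Rps18.

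The large subunit joins the amino acids. Of its 43 genes, 11 had a log2 fold change above 0 and 32 below in all libraries, with a median of -0.17. Without flox 1 and flox 4, 42 were above 0 with a median of 0.39. An unadjusted p under 0.05 was reached by 8, all higher in CKO (3.34% of all genes in that direction).

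Rpl41, the smallest subunit protein, with a coding length of 75 bases, followed Rps15 and, like it, was shown without the run. It stood at 4461, 744, 1189, 2666 and 709 CPM in flox 1 to 5, then at 745, 693, 904, 1677 and 1097 CPM in CKO 1 to 5. The log2 fold change of -0.93 ± 0.50 (SE, edgeR adjusted p = 0.414) became 0.23 without flox 1 and flox 4. Rpl38, known for its part in the translation of Hox transcripts and shown with the run, was at 474, 96.3, 140, 245 and 77.0 CPM in flox, against 92.6, 86.9, 116, 176 and 168 CPM in CKO. Its log2 fold changes were -0.69 ± 0.45 (SE) with and 0.30 without those libraries. Rpl13a, which also belongs to an interferon-activated inhibitor of translation, had a log2 fold change of -0.60 that became 0.40. In flox 1 these 3 genes were each more than 2-fold above the highest CKO library.

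Rpl4, whose extension reaches into the exit tunnel, was the steadiest of the abundant genes together with Rpl7a. Rpl4 measured 800, 722, 879, 813 and 700 CPM in flox 1 to 5, then 743, 660, 906, 825 and 935 CPM in CKO 1 to 5. Flox 1 was not high for it. The ratio of CKO to flox was 1.04 (95% interval 0.824 to 1.31). Rpl7a, another large subunit protein and one shown with the run, was at 769, 733, 716, 606 and 552 CPM in flox, against 739, 697, 801, 737 and 861 CPM in CKO, with a log2 fold change of 0.18 ± 0.15 (SE, edgeR adjusted p = 0.547) and 0.21 without flox 1 and flox 4.

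Rpl23a, at the exit of the tunnel where signal recognition particle docks, was at 652, 421, 436, 383 and 305 CPM in flox, against 474, 415, 558, 555 and 725 CPM in CKO. Flox 1 exceeded 4 of the CKO libraries and flox 5 lay below all. Its log2 fold change was 0.31 ± 0.22 (SE, edgeR adjusted p = 0.493), and 0.50 without flox 1 and flox 4. Rpl39, a short protein that lines the tunnel, had a log2 fold change of 0.14 ± 0.28 (SE), and 0.57 without those libraries.

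Rpl5, Rpl11 and Rpl23 can bind Mdm2, the ubiquitin ligase of p53, when ribosome assembly is disturbed. Rpl5 was at 67.1, 26.9, 27.6, 48.3 and 22.6 CPM in flox 1 to 5, then at 24.8, 20.9, 31.2, 32.5 and 31.8 CPM in CKO 1 to 5. Its log2 fold change was -0.44 ± 0.28 (SE, edgeR adjusted p = 0.466). Those of Rpl11 and Rpl23 were -0.17 ± 0.29 and -0.02 ± 0.27. Without flox 1 and flox 4 the 3 values were 0.15, 0.32 and 0.41. Rpl3, which forms part of the peptidyl transferase centre, had -0.37 ± 0.29 (SE) with and 0.14 without them, and Rpl10a, of the mobile stalk beside the exit site, -0.17 ± 0.30 and 0.39.

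Rpl10, which joins the large subunit late and completes the peptidyl transferase centre, went its own way. It measured 237, 200, 364, 253 and 282 CPM in flox 1 to 5, then 175, 210, 258, 229 and 277 CPM in CKO 1 to 5. Its highest library was flox 3, and flox 1 was near the middle. The log2 fold change was -0.22 ± 0.18 (SE, edgeR adjusted p = 0.556), and -0.29 without flox 1 and flox 4. Its reads are the least certain of the family, because 70.6% of the reads that fell on Rpl10 or its -ps copies were given to the copies. The share ran from 55.9% to 81.1% between libraries, and copy and parent cannot be told apart where their sequence is the same.

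Copies took a smaller part of most other members, counting only copies with -ps in the symbol. Reads on copies with other names were not counted. The corresponding share was 58.2% for Rps12, 40.2% for Rps23, 39.5% for Rps13 and 32.1% for Rpl10a, and all 140 copies in the table together took 0.127% to 0.284% of the counts of a library. How the authors' counting treated reads with several matches is not given in the sources used here, so the levels of these 5 members, and of Rps27rt, a near copy of Rps27, are uncertain. Behind them came Rpl31 (29.9%), Rps16 (23.6%), Rpl36a (23.4%), Rpl28 (22.9%) and Rpl15 (17.8%), and the levels of these are uncertain to a lesser degree. When the reads of the copies were added to each member, the median log2 fold change over the 80 genes was -0.12 and 0 were called (0.00% of all genes), but single members moved. Rps12, of the small subunit, went from a log2 fold change of -0.24 to -1.28, below Rps15, with an unadjusted p of 0.0169 (13.0% of all genes had one under 0.05) and an edgeR adjusted p of 0.365. Rpl10a went from -0.17 to -0.33, Rpl28 from -0.55 to -0.71, Rps13 from -0.18 to 0.00 and Rpl10 from -0.22 to -0.08.

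Levels per length can be compared between genes in the deposited FPKM, which the authors scaled by transcript length and library total. The median over 10 libraries' means of the 80 genes was 1146 FPKM, and 53 of them lay between 500 and 2000. Rpl41 (5425) and Rps15 (5417) were highest, followed by Rps27 (4444), a zinc-binding protein of the small subunit. The first 2 did not differ beyond their spread, since the flox means alone had SDs of 3198 FPKM for Rpl41 and 3495 for Rps15. At the low end stood Rpl5 (24.3), Rpl7l1 (30.3), Rpl12 (33.2), Rps12 (41.4) and Rps19bp1 (44.1), all 5 more than 20-fold below the median of the family. Of these, Rpl5, Rpl12 and Rps12 are core parts of the ribosome. Whether reads of Rpl5 or Rpl12 fell on copies without -ps in the symbol was not tested, so their low levels are uncertain too. The highest of the 80 was 223 times the lowest.

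The FPKM of short members also depended on a length that differed between libraries. The length that turns the deposited count into the deposited FPKM was 271, 244, 270, 262 and 274 bases for Rps18 in flox 1 to 5, then 241, 245, 243, 247 and 261 bases in CKO 1 to 5. For Rpl38 it ran from 63.7 to 84.8 bases in flox and from 61.7 to 75.7 in CKO. Estimated over 715 genes, the offset from the average was 8.75 ± 12.4 bases in flox and -8.43 ± 7.86 in CKO (SD, 5 libraries per group), which a two-sided exact permutation test put at p = 0.0397. A shorter length gives a higher FPKM from the same count, and the shift weighs most on the shortest genes. Rps18 had 1098 ± 462 FPKM in flox and 2181 ± 655 in CKO, a larger ratio than in CPM. The scaling enters this ratio as well as the length. Its log2 fold change was 0.50 by edgeR with TMM, 0.92 with library totals alone and 1.04 by limma on log2(FPKM + 1). By limma on log2(FPKM + 1), which carries no TMM scaling, 74 of the 80 log2 fold changes were above 0 against 84.7% of all genes. Their median was 0.43 and that of all genes 0.30, and 0 of the 80 were called (0.00% of all genes). The gap between these medians depended on the pseudocount, since on log2(FPKM + 0.1) they were 0.43 and 0.41. With counts scaled by library totals alone the medians were 0.40 and 0.36, so both groups of genes moved with the scaling. With this length offset as a covariate of the edgeR fit, 71 of 80 were above 0 (50.0% of all genes), with a median of 0.24 and 0 called (0.00% of all genes).

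**Figure D5:**
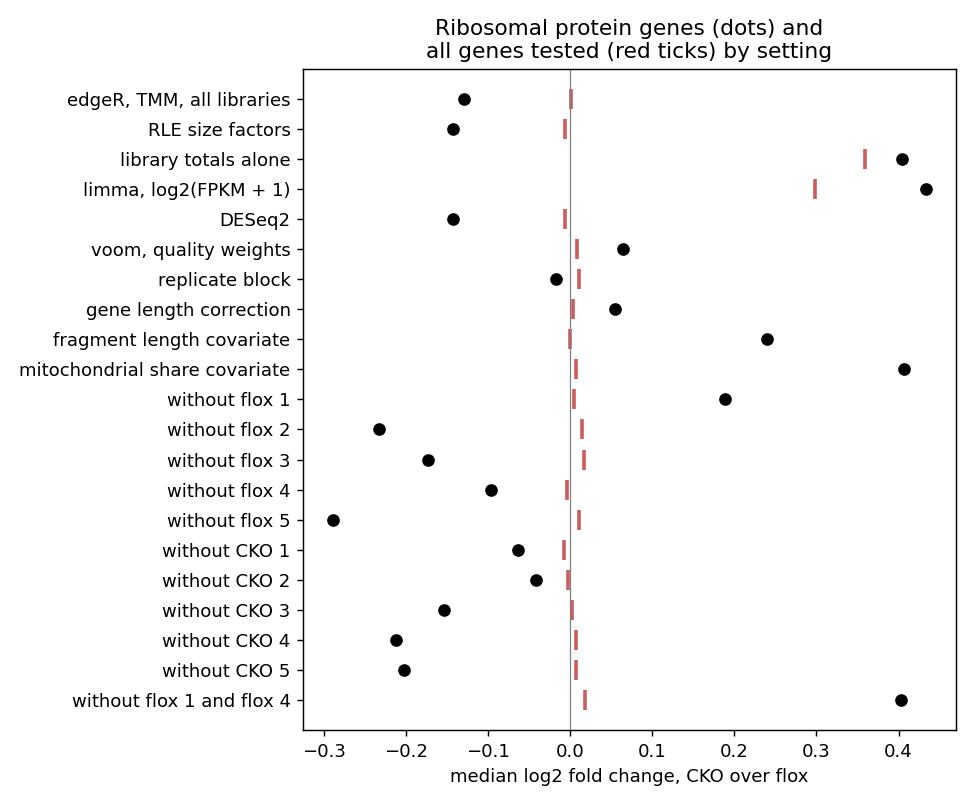
Median log2 fold change of CKO over flox of the ribosomal protein genes (black dots) and of all genes tested (red ticks) under 21 settings. The black dots move from -0.29 without flox 5 to 0.43 on FPKM, and the red ticks leave 0 only for library totals and FPKM.

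Coding length was related to the values without flox 1 and flox 4. Across the 80 genes, whose coding lengths ran from 75 to 1257 bases, the log2 fold change without those libraries had a Pearson r of -0.55 with coding length (Spearman's rho -0.55), so shorter genes had the higher values. Over all 10 libraries r was 0.02. Of the other features tried on the values without those libraries, transcript length had an r of -0.13 (rho -0.37). Exon number had an r of -0.40 and mean FPKM 0.08. The deviation of a gene in flox 1 had an r of -0.43 with coding length. The genes share their libraries, so these are descriptions across genes. Members with and without the pyrimidine run had close medians. Their median log2 fold change without flox 1 and flox 4 was 0.41 for the 33 tested members with the run and 0.36 for the 28 without, and over all 10 libraries it was -0.13 and -0.12.

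The paralogues were compared with their partners as ratios of CPM within a library. Rps27l, a target gene of p53, was at 46.4%, 44.7%, 39.4%, 49.9% and 45.6% of Rps27 in flox 1 to 5, then at 48.4%, 43.4%, 38.6%, 51.4% and 32.8% in CKO 1 to 5. Rpl22l1, which can stand in for Rpl22, was at 24.5% to 34.4% of it in flox and 29.2% to 33.9% in CKO. Rpl36al reached 68.7% to 115% of Rpl36a in flox and 72.7% to 108% in CKO. Rpl7l1, a nucleolar relative of Rpl7 that acts in assembly, was at 6.48%, 9.46%, 8.20%, 6.63% and 10.9% of Rpl7 in flox and at 10.2%, 12.0%, 8.91%, 8.01% and 9.69% in CKO. All 4 ratios overlapped between the groups. The differences of the mean log2 ratio, CKO minus flox, were -0.09, 0.08, -0.01 and 0.24 in the order given, with adjusted p of 0.709, 0.709, 0.944 and 0.709 over the 4 pairs (two-sided exact permutation test, smallest possible p 0.00794). The same differences without flox 1 and flox 4 were -0.03, -0.04, -0.20 and 0.03.

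Rpl7l1 had the smallest spread of the family in CPM. It was at 72.4, 58.3, 63.1, 57.6 and 61.9 CPM in flox 1 to 5, then at 64.6, 65.6, 65.3, 65.5 and 75.5 CPM in CKO 1 to 5. All CKO libraries were above flox 2 to 5 and below flox 1, apart from CKO 5. The log2 fold change was 0.10 ± 0.10 (SE, edgeR adjusted p = 0.618), and 0.15 without flox 1 and flox 4. Rpl22l1 and Rps27l had 0.01 ± 0.27 and 0.03 ± 0.24, and 0.40 and 0.43 without those libraries.

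The list of 5 ribosomal proteins whose symbols fall outside the rule (Rplp0, Rplp1 and Rplp2 of the stalk, Fau and Rack1) was described beside the members. All 5 had a log2 fold change below 0 in all libraries (median -0.36) and all 5 one above 0 without flox 1 and flox 4 (median 0.15). None was called by edgeR or DESeq2. Among 28 initiation factors, 10 were above 0 and 18 below, with a median of -0.08, and 3 of those below and 1 above had an unadjusted p under 0.05, which 13.0% of all genes had. With flox 1 and flox 4 left out, 20 were above 0 and 8 below (median 0.05), and 0 had an unadjusted p under 0.05. Of 6 elongation factors 2 were above and 4 below 0 (median -0.11), and without those libraries 4 were above and 2 below (median 0.04). Eef1b2, a nucleotide exchange subunit for elongation whose transcript is also of the TOP kind, averaged 276 ± 41.7 CPM in flox against 360 ± 76.9 CPM in CKO (SD, n = 5 each), with a log2 fold change of 0.39 and an edgeR adjusted p of 0.381. Among 43 ribosome biogenesis factors, which assemble subunits in the nucleolus, 28 were above 0 and 15 below (median 0.07, and 0.07 without flox 1 and flox 4). Of 17 genes of the mTOR pathway and binding proteins of TOP transcripts, 6 were above and 11 below 0. Ddit4, an inhibitor of mTOR complex signalling, averaged 33.0 ± 8.54 CPM in flox against 59.1 ± 16.0 CPM in CKO, with a log2 fold change of 0.84, an edgeR adjusted p of 0.302 and a DESeq2 adjusted p of 0.0366.

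A pair of families with other sites of action behaved like the ribosomal protein genes in their dependence on flox 1 and flox 4. Of 79 mitochondrial ribosomal proteins, 17 were above 0 and 62 below (median -0.22), and without those libraries 65 were above and 14 below (median 0.09). Of 74 tested nuclear-encoded subunits of the respiratory chain and ATP synthase, 25 were above and 49 below (median -0.20), and then 62 and 12 (median 0.27). Without flox 1 and flox 4, 18 of them were higher in CKO at an unadjusted p under 0.05, against 3.34% of all genes. The genes share their libraries, so these 18 are not separate observations. No gene of either family was called by edgeR or DESeq2. Across the 10 libraries, which all share, the mean deviation of the mitochondrial ribosomal list had a Pearson r of 0.92 with that of the ribosomal protein genes, the respiratory list 0.91, the elongation list 0.94, the initiation list 0.89, the biogenesis list 0.48 and the mTOR list 0.26.

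The 10 other protein-coding genes most like the family mean in log2 CPM over the 10 libraries were Hist1h2ap (Pearson r 0.988), Rplp1 (0.985), Nme2 and Fbl (0.984 each), Snrpd2 (0.982), Mrps24 (0.981), Snrpg and Pop5 (0.980 each), and Romo1 and Taf15 (0.978 each). Hist1h2ap is a histone, Rplp1 a ribosomal stalk protein, Nme2 a nucleoside diphosphate kinase and Fbl the methyltransferase of ribosomal RNA. Snrpd2 and Snrpg are core proteins of the spliceosome, Mrps24 belongs to the mitochondrial ribosome and Pop5 to ribonuclease P.

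Markers of cell types were measured beside the family. Of 8 goblet cell markers, all 8 had a log2 fold change below 0 (median -0.72), and their summed level was 25102 to 39979 CPM in flox and 13611 to 24432 CPM in CKO. Of 7 tested crypt stem cell markers, 6 were above 0 (median 0.58), with summed levels of 173 to 296 CPM in flox and 231 to 337 in CKO. Of 10 cycling cell markers, 4 were above 0 and 6 below (median -0.01), at a summed 399 to 536 CPM in flox and 410 to 521 in CKO. Among 8 absorptive colonocyte markers, 5 were above 0 and 3 below (median 0.07). All 8 tested fibroblast and muscle markers were above 0 (median 0.89), at a summed 20.5 to 73.3 CPM in flox and 52.5 to 209 in CKO. Without flox 1 and flox 4 the medians were -0.57 for goblet, 0.34 for stem and -0.15 for cycling markers. They were 0.18 for colonocyte and 0.999 for fibroblast and muscle markers. Myeloid markers summed to 8.31 to 35.8 CPM in flox and 10.1 to 44.5 in CKO. T and NK cell markers summed to 13.9 to 33.7 and 8.03 to 29.7 CPM, B and plasma cell markers to 5.57 to 16.8 and 5.02 to 7.39, and endothelial markers to 10.7 to 14.1 and 7.82 to 10.3. No marker list had a gene at 0 in all libraries, and edgeR called none of these genes, while DESeq2 called Muc2, the gel-forming mucin, and Vwf, an endothelial marker. The part of cell composition in the ribosomal protein values was not tested.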

How the data were processed

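Per the labels' protocols, RNA of colon crypts was enriched for mRNA and made into TruSeq libraries, and the submitters' processing notes name fastp and HISAT2. Their genome build, gene models, counter and strandedness were not given in the sources used here. Whole reads per Ensembl gene ID, not normalized, make up the deposited counts, and the deposited FPKM are the authors' values per length and library total. All sample columns were used. Symbols came from the GENCODE M21 mouse annotation and matched 26102 of 33632 IDs. The members and gene lists were chosen with earlier results of these data known.

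Counts were filtered with filterByExpr, scaled by TMM and tested with edgeR 4.0.16 (robust quasi-likelihood fit, R 4.3.3) on the group alone, with Benjamini-Hochberg adjustment over all genes and a threshold of 0.05. DESeq2 1.42.0 and limma 3.58.1 were alternatives. Log2 CPM used a prior count of 2. Intervals are at 95%. Ratios of paralogues were compared by exact permutation. The fits were tested on simulated counts in which genes varied independently. The family moved together from library to library, so that test does not cover such movement. Named genes were set by role, by the 5 highest and 5 lowest fold changes, by the 3 smallest p per direction, by the 3 highest and 3 lowest FPKM and spread, by the 3 smallest p of each list and by the 10 genes most alike. Others named here (such as Rpl35, Rps12, Rpl31 and Rps27rt) were chosen after their values were seen. No pair of libraries agreed within sampling noise. Some genes are not reported here by name.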

Additional observations from a re-analysis of the deposited data

Results flagged for a closer look

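In 3 of 82 sets of 5 values checked, 1 library lay far from the other 4; chance gives about 1 in 20. Rps15a, of the small subunit, was at 371 CPM in flox 1 and at 163 to 223 CPM in the other flox libraries. Rps27 was at 377 CPM in flox 1 against 143 to 202 CPM in the others. Flox 1 is one of the 2 libraries with a high mitochondrial share, and the cause was not tested. Rpl7l1 was at 75.5 CPM in CKO 5 and at 64.6 to 65.6 CPM in the other CKO libraries, a gap that is wide because the other 4 lie so close together.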

How the results depend on the processing

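None of the 80 genes was called at an adjusted p of 0.05 under any of the 30 alternatives run. Their median log2 fold change, -0.13, became 0.40 with library totals alone, 0.43 on log2(FPKM + 1) and on log2(FPKM + 0.1), 0.40 without flox 1 and flox 4 (0.40 by DESeq2, chosen after seeing the data) and 0.41 with mitochondrial share in the fit. Leaving out each replicate gave -0.29 to 0.19. Over all genes, edgeR called 3 without a filter and 1 with the mitochondrial covariate, DESeq2 170, DESeq2 without flox 1 and flox 4 71, voom with quality weights 52, and leaving out each replicate 0 to 2. The share of all counts, 0.835 percentage points higher in CKO, was 3.36 points of FPKM, 0.359 without mitochondrial counts and 0.0413 without their nuclear copies too (chosen after seeing the data), and 0.511 to 1.13 without each replicate. Without flox 1 and flox 4 the log2 ratio difference went from 0.0751 to -0.0431 for Rpl22l1 to Rpl22, from -0.0888 to -0.0258 for Rps27l to Rps27, from -0.0104 to -0.200 for Rpl36al to Rpl36a and from 0.245 to 0.0341 for Rpl7l1 to Rpl7. Leaving out each replicate gave 0.00630 to 0.129 for Rpl22l1 to Rpl22, -0.158 to 0.00354 for Rps27l to Rps27, -0.100 to 0.0854 for Rpl36al to Rpl36a and 0.162 to 0.348 for Rpl7l1 to Rpl7. The cause was not tested. With the replicate number as a block the median was -0.02 and 0 genes were called, and 0.05 with a gene length correction added, as with that correction alone. Voom with quality weights gave 0.06. The deviations of same-numbered libraries had r of -0.30, 0.28, 0.09, 0.40 and -0.06. No r was taken for differently numbered libraries, so whether same-numbered ones share more than a number was not tested. With 5 libraries a group and this spread, the median SE of a log2 fold change was 0.29.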
